A study of Mus musculus with 18 samples.

Results

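The nuclear genes for respiratory complexes II and III, cytochrome c and ATP synthase were followed through 18 RNA-seq libraries of the mouse myoblast line C2C12, which fuses into myotubes in low serum. Members were taken from the count table by symbol: every protein-coding gene starting with Atp5 or Uqcr, together with Sdha, Sdhb, Sdhc, Sdhd, Cyc1 and Cycs, leaving out pseudogenes named -ps. The rule used no measured value and found 32 of 55450 gene IDs. Of these, 31 passed the filter on low counts and were tested among 17912 genes. The remaining ID is a second Atp5o locus that reads through into its neighbour, and it had 0 counts in all 18 libraries.

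Each of 3 lines was sampled as myoblasts (MB) and as myotubes on day 3 of differentiation (MT), with replicates A, B and C, giving 6 groups of 3. The control line, px, was a sorted population that received the pX458 CRISPR vector without a guide. Line 2-4, labelled a Dlk1-Dio3 overexpressor, and line 2-7, labelled a Dlk1-Dio3 knockout, were each 1 clone raised from a single cell after cutting with pairs of guides at the Meg3 promoter. Genotype and clone therefore cannot be told apart. Nothing in the labels says that replicates came from separate cultures, so p-values measure the spread between these samples, which may be technical.

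Complex II (succinate dehydrogenase) belongs both to the TCA cycle and to the respiratory chain: it oxidises succinate and hands the electrons to coenzyme Q. Complex III takes electrons from reduced coenzyme Q, passes them to the small carrier cytochrome c and moves protons across the inner membrane. ATP synthase lets protons return through its membrane ring of c subunits, and the rotation of its central stalk inside the catalytic head drives the making of ATP. Myoblasts that fuse into myotubes are known to take on more mitochondrial metabolism, and most subunits of these complexes are encoded in the nucleus. The few encoded in mitochondrial DNA are not members.

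Promoter sequences are shown for the genes at the ends of the results below: Uqcr11 and Atp5d, which had the 2 largest rises in line 2-7, Atp5k, which had the largest rise in line 2-4 myotubes, and Sdha, which was lower in line 2-7 at both stages. Each is the RefSeq window from 250 bases before to 50 bases after the annotated start (GRCm38.p6), written 5′ to 3′ along the gene's strand. Capitals mark matches, on either strand, to the core letters of 5 motifs: NRF1 (GCATGCG), GABPA (CCGGAAG), ERR (AAGGTCA), YY1 (AAGATGG) and SP1 (GGGCGG). NRF1, the GABPA-containing factor NRF2 and the estrogen-related receptors (ERR) are textbook regulators of respiratory chain genes.
Uqcr11, chr10:80406772-80407071, minus strand: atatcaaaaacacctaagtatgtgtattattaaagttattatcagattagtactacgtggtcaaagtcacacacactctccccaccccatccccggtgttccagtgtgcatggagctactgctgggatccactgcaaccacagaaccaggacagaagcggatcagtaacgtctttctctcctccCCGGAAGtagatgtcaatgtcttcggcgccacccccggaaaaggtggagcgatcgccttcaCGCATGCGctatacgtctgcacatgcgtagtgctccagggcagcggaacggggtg
Atp5d, chr10:80142025-80142324, plus strand: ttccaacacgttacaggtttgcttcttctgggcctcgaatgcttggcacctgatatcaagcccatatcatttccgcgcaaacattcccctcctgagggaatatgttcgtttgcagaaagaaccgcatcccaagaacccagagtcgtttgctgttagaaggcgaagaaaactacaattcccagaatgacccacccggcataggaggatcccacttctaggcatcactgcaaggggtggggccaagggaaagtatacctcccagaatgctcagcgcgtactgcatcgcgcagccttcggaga
Atp5k, chr5:108434350-108434649, minus strand: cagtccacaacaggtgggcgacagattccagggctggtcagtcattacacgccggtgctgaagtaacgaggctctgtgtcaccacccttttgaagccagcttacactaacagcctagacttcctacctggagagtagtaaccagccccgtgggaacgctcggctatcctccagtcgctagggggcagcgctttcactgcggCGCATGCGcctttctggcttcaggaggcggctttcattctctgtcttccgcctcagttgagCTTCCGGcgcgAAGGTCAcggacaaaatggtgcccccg
Sdha, chr13:74350191-74350490, minus strand: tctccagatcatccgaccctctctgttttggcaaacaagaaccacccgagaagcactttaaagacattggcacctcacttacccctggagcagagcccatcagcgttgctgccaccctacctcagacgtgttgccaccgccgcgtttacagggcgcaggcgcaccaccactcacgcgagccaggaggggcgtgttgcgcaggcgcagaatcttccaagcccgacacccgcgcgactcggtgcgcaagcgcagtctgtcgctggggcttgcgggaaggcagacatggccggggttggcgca
The Uqcr11 window held a GABPA match and an 8-base palindrome read as NRF1 on both strands. The Atp5k window held that same palindrome, 1 GABPA match and 1 ERR match. None of the 5 motifs was found in the Sdha window or in the Atp5d window shown, which is 1 of 2 listed for that gene. Windows were matched for 22 member genes. NRF1 was found in 8 of them (36.4%), against 4.01% of all 27025 genes with a window and 6.78% of the 11508 tested ones. GABPA was found in 9 (40.9%, against 9.93% of all and 18.3% of tested genes) and ERR in 5 (22.7%, against 5.38% and 4.05%). For YY1 there were 2 (9.09%, against 7.28% and 8.18%), and for SP1 7 (31.8%, against 38.2% and 65.4%). Such matches describe letters in a window, not binding. Of the 8 members with an NRF1 match, Cycs, Atp5j and Atp5g2 did not pass the test in line 2-7 myotubes and the other 5 rose, beside 24 of all 31 members and 31% of all tested genes.

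Totals ran from 41544358 to 79140702 counts per library, and a count of 0 allowed up to 0.0375 to 0.0693 CPM depending on the library. CPM is the count divided by the library size scaled with its TMM factor (0.895 to 1.08), times 1000000, and the limits cover counting error only. Meg3, the gene at the edited promoter, had 0 counts in all libraries of px and of line 2-7, and 133 ± 22.9 CPM (SD, n = 3) in line 2-4 myoblasts and 92.6 ± 13.4 CPM in its myotubes. It therefore did not separate the line labelled knockout from the control. The summed CPM of 7 myotube markers (Myog, Mymk, Mymx, Myh3, Ckm, Acta1 and Tnnt3) was 248 to 378 in control myoblasts, 431 to 711 in line 2-4 myoblasts and 9164 to 11700 in line 2-7 myoblasts. In myotubes it was 13745 to 14227 in px, 20982 to 23124 in line 2-4 and 29676 to 35376 in line 2-7. The 4 myoblast markers (Myod1, Myf5, Des and Cdh15) summed to 1357 to 1507 CPM in control myoblasts, 2729 to 3303 CPM in line 2-4 and 3423 to 3897 CPM in line 2-7, and in myotubes to 2579 to 2704, 5598 to 6788 and 7839 to 10424 CPM. The summed CPM of 4 fibroblast markers was 187 to 206 in control myoblasts against 48.2 to 59.3 in both clones, and 328 to 332 in control myotubes against 32.7 to 75.2. Osteoblast markers summed to 71.5 to 74.4 CPM in control myotubes, 26.2 to 28.2 CPM in line 2-4 and 11.3 to 15.2 CPM in line 2-7. Adipocyte markers stayed under 20 CPM, and leukocyte and endothelial markers under 2 CPM. The part of these shifts in the results below was not tested. In bulk RNA, a change in the number of cells of a type and a change in RNA per cell cannot be told apart.

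In control myoblasts the members covered a wide range when counts were divided by the length of 1 principal transcript per gene. Atp5b, the catalytic beta subunit of ATP synthase, stood first at 943 ± 35.5 CPM per kb (SD, n = 3). Atp5g3, a gene for the c ring, followed at 571 ± 8.73, and Atp5a1, the alpha subunit, at 414 ± 12.03 CPM per kb. The next places were taken by Atp5d, a central stalk subunit, at 288 ± 4.71 and Uqcrh, the hinge protein of complex III, at 277 ± 3.71 CPM per kb. Within complex II, Sdha (105 ± 4.90), Sdhd (105 ± 3.62) and Sdhb (101 ± 1.54) lay within their spread of each other, and Sdhc was lower at 54.4 ± 3.97 CPM per kb. At the low end were Atp5g2 (9.17), Atp5g1 (5.95), Atp5s (2.49) and Cycs (0.965 CPM per kb). The place of Atp5g1 depended on the transcript of 4715 bases used for it. Before division by length it had 28.1 CPM, more than Uqcrb at 22.5 CPM, and 11.6% of its 50-base stretches occur in other genes. Low values of Cycs and Atp5g2 are uncertain, since 28.5% and 100% of the 50-base stretches of their transcripts also occur in other genes, and the same holds for Atp5l at 84.8%. How the authors' counting treated such reads was not given in the sources used here.

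In line 2-7, most members were higher than in the control at both stages. Among myoblasts, 23 of 31 rose and 1 fell, where 26.4% of all tested genes rose and 26.6% fell. Among myotubes 24 rose and 2 fell, against 31% and 37% of all tested genes. The median log2 fold change of the members was 0.49 in myoblasts and 0.68 in myotubes, beside medians of 0.02 and -0.07 over all tested genes. The myotube markers were higher in the line 2-7 libraries too, at 9164 CPM or more in myoblasts against 378 CPM or less in the control, and their part in the result was not tested. Called rises of at least 2-fold numbered 0 among members in myoblasts (9.75% of all tested genes) and 6 in myotubes (13.1%). The control myoblasts and the control myotubes are different libraries, and 20 members rose in both comparisons, as did 15.8% of all tested genes.

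**Figure D1:**
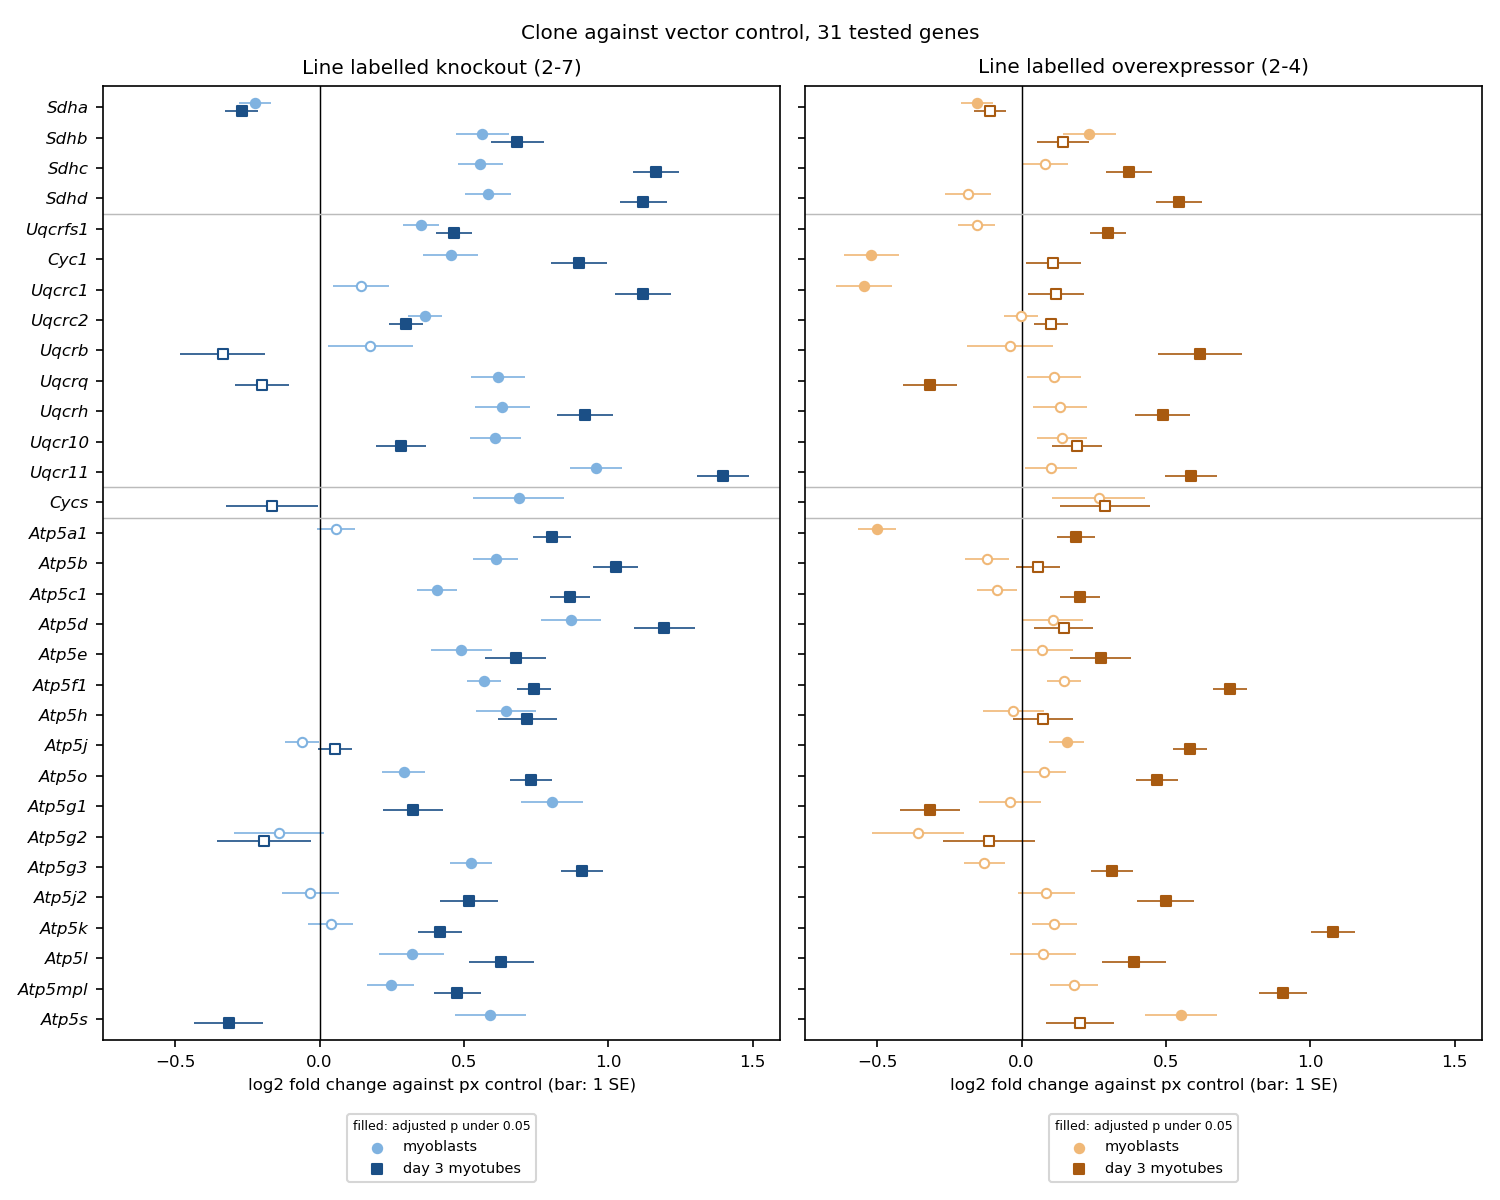
Log2 fold change of each tested gene against the px control, with bars of 1 SE, for line 2-7 on the left and line 2-4 on the right; circles are myoblasts, squares are day 3 myotubes, and filled symbols have an adjusted p under 0.05. In line 2-7 most symbols of both stages lie right of 0, whereas in line 2-4 the circles scatter around 0 and 17 of the 31 squares are filled to its right.

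Complex II divided by subunit in line 2-7. Sdha, the flavoprotein that oxidises succinate, stood at 290, 311 and 317 CPM in control myoblasts and at 259, 261 and 266 CPM in those of line 2-7. All 3 line 2-7 libraries lay below all 3 controls. The log2 fold change was -0.22 ± 0.06 (SE, edgeR quasi-likelihood test, adjusted p = 0.00245). In myotubes Sdha was 356, 328 and 342 CPM in px and 278, 287 and 286 CPM in line 2-7, again without overlap (-0.27 ± 0.06, adjusted p = 0.000352). This last call did not hold under DESeq2 size factors (-0.14, adjusted p = 0.0638) or the DESeq2 Wald test (-0.14, adjusted p = 0.0507).

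Sdhb, the iron-sulfur subunit that carries the electrons onward, went the other way. It measured 115, 113 and 116 CPM in control myoblasts and 166, 168 and 175 CPM in line 2-7 myoblasts, a log2 fold change of 0.56 ± 0.09 (adjusted p = 4.11e-05). Its control myotubes stood at 140, 159 and 136 CPM, below the 211, 228 and 260 CPM of line 2-7 (0.68 ± 0.09, adjusted p = 2.94e-06). The membrane anchors, which hold complex II in the inner membrane and form its coenzyme Q site, rose at both stages as well, with larger fold changes than Sdhb in myotubes and values within 1 SE of it in myoblasts; differences between genes were not tested. Sdhc was 187, 181 and 169 CPM in control myotubes and 369, 402 and 433 CPM in line 2-7 myotubes, and every line 2-7 library was above every control. Its log2 fold change was 1.16 ± 0.08 (adjusted p = 5.07e-10), after 0.56 ± 0.08 in myoblasts. Sdhd went from 117, 124 and 98.4 CPM to 231, 249 and 259 CPM in myotubes (1.12 ± 0.08, adjusted p = 8.98e-10), with 0.58 ± 0.08 in myoblasts.

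Of the 9 complex III genes, 7 rose in line 2-7 at each stage and none fell. Of all tested genes 26.4% rose and 26.6% fell in myoblasts, and 31% rose and 37% fell in myotubes. Uqcrq rose in myoblasts and did not pass in myotubes (-0.20, adjusted p = 0.0641). There it was called lower with no filter (-0.21, adjusted p = 0.0318) and without line 2-7 replicate C (-0.29, adjusted p = 0.011). Uqcrfs1, the Rieske iron-sulfur protein at the catalytic core, measured 104, 105 and 104 CPM in control myoblasts and 128, 136 and 136 CPM in line 2-7. In myotubes it was 118, 124 and 108 CPM in px and 157, 163 and 163 CPM in line 2-7. The groups did not overlap at either stage, and the log2 fold changes were 0.35 ± 0.06 (adjusted p = 0.000112) and 0.46 ± 0.06 (adjusted p = 3.37e-06). Cyc1, the heme protein that hands electrons to cytochrome c, was 217, 229 and 232 CPM in control myoblasts and 298, 319 and 311 CPM in line 2-7. Control myotubes had 213, 236 and 187 CPM of it and line 2-7 myotubes 359, 384 and 442 CPM. Its rise was 0.45 ± 0.10 (adjusted p = 0.000577) in myoblasts and 0.90 ± 0.10 (adjusted p = 1.94e-07) in myotubes, with all line 2-7 libraries on top.

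Uqcr11, a small supernumerary subunit, had the largest rise of all members at both stages. Control myoblasts held 56.4, 58.2 and 57.9 CPM and line 2-7 myoblasts 112, 110 and 112 CPM. Control myotubes held 75.2, 80.4 and 78.3 CPM and line 2-7 myotubes 184, 196 and 236 CPM. The log2 fold changes were 0.96 ± 0.09 (adjusted p = 5.42e-08) and 1.40 ± 0.09 (adjusted p = 2.19e-10, 2.63-fold). Uqcrc1, a core protein that faces the matrix, had 261, 271 and 273 CPM in control and 294, 302 and 293 CPM in line 2-7 myoblasts, which did not pass the test (0.14 ± 0.10, adjusted p = 0.229). It passed when only the groups compared were fitted (0.13, adjusted p = 0.00393). Its myotube libraries stood far apart, with 215, 222 and 199 CPM in px and 407, 437 and 538 CPM in line 2-7 (1.12 ± 0.10, adjusted p = 1.36e-08). Uqcrc2, the other core protein, rose by 0.36 ± 0.06 and 0.30 ± 0.06 at the 2 stages. Uqcrb, which helps bind coenzyme Q, was the only complex III gene that passed at neither stage (0.18 ± 0.15 and -0.33 ± 0.15), and 43.4% of its 50-base stretches occur in other genes.

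Cytochrome c itself was scarce in these counts. Cycs stood at 3.22, 2.75 and 3.07 CPM in control myoblasts and at 4.56, 4.26 and 5.75 CPM in line 2-7 myoblasts, where it rose by 0.69 ± 0.16 (adjusted p = 0.00125). In myotubes the lines overlapped, with 3.43, 3.52 and 3.77 CPM in px and 3.24, 3.48 and 2.82 CPM in line 2-7 (-0.17 ± 0.16, adjusted p = 0.366). Reads shared with its 76 matching genes limit both values.

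Of the 17 ATP synthase genes tested, 12 rose in line 2-7 myoblasts and 14 in line 2-7 myotubes, against 26.4% and 31% of all tested genes. The 17 include Atp5s, which encodes a factor and no subunit and was among the 12. Atp5b had 1729, 1837 and 1854 CPM in control myoblasts and 2735, 2777 and 2756 CPM in line 2-7 myoblasts. In myotubes it had 1796, 1863 and 1696 CPM in px and 3312, 3587 and 4001 CPM in line 2-7. These groups were far apart at both stages, by 0.61 ± 0.08 (adjusted p = 2.42e-06) and 1.03 ± 0.08 (adjusted p = 1.94e-09) on the log2 scale. Its partner in the catalytic head, Atp5a1, measured 988, 1040 and 1038 CPM in control and 1051, 1072 and 1068 CPM in line 2-7 myoblasts, a difference of 0.06 ± 0.07 that did not pass the test (adjusted p = 0.485). In myotubes Atp5a1 separated fully, from 811, 824 and 768 CPM to 1290, 1410 and 1499 CPM (0.80 ± 0.07, adjusted p = 5.58e-09).

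The central stalk genes rose together at both stages. Atp5d, its delta subunit, had 263, 269 and 272 CPM in control and 485, 502 and 484 CPM in line 2-7 myoblasts. Its myotube values were 383, 398 and 321 CPM in px and 747, 812 and 963 CPM in line 2-7. With 0.87 ± 0.10 (adjusted p = 1.2e-06) and 1.19 ± 0.10 (adjusted p = 1.41e-08) it was second only to Uqcr11 at each stage. Atp5c1 (gamma) rose by 0.41 ± 0.07 and 0.87 ± 0.07, and Atp5e (epsilon) by 0.49 ± 0.11 and 0.68 ± 0.11. Among the peripheral stalk genes, which brace the head against the membrane part, Atp5f1, Atp5h and Atp5o rose at both stages, by 0.29 to 0.64 in myoblasts and 0.72 to 0.74 in myotubes. Of the 50-base stretches of Atp5f1, Atp5h and Atp5o, 38.7%, 50.5% and 50.3% occur in other genes. Atp5j, also of this stalk, did not pass at either stage (-0.06 ± 0.06 and 0.05 ± 0.06), though with DESeq2 size factors its myotube difference was 0.19 and passed (adjusted p = 0.0125).

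The membrane subunits e (Atp5k) and f (Atp5j2) rose in line 2-7 in myotubes but did not pass in myoblasts. Atp5k went from 51.5, 61.5 and 56.5 CPM in control myotubes to 70.6, 75.0 and 80.8 CPM (0.42 ± 0.08, adjusted p = 0.000109). Atp5l (subunit g) and Atp5mpl, a small proteolipid, rose at both stages, Atp5mpl by 0.25 ± 0.08 and 0.48 ± 0.08. Atp5s, named for coupling factor B, rose in myoblasts and was called lower in myotubes: 3.56, 3.48 and 4.08 CPM against 5.16, 5.88 and 5.68 CPM in myoblasts (0.59 ± 0.12, adjusted p = 0.00054), and 7.29, 7.07 and 7.94 CPM against 6.47, 5.36 and 6.13 CPM in myotubes (-0.31 ± 0.12, adjusted p = 0.0272). The call in myotubes was lost in 5 of the 6 alternatives that keep all libraries: DESeq2 size factors (-0.18, adjusted p = 0.173), the Wald test (-0.18, adjusted p = 0.175), library totals (-0.27, adjusted p = 0.0524), no filter (-0.33, adjusted p = 0.0549) and only the groups compared (-0.26, adjusted p = 0.0905). It was also lost without control replicate C (-0.27, adjusted p = 0.0965) or line 2-7 replicate B (-0.24, adjusted p = 0.128).

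**Figure D2:**
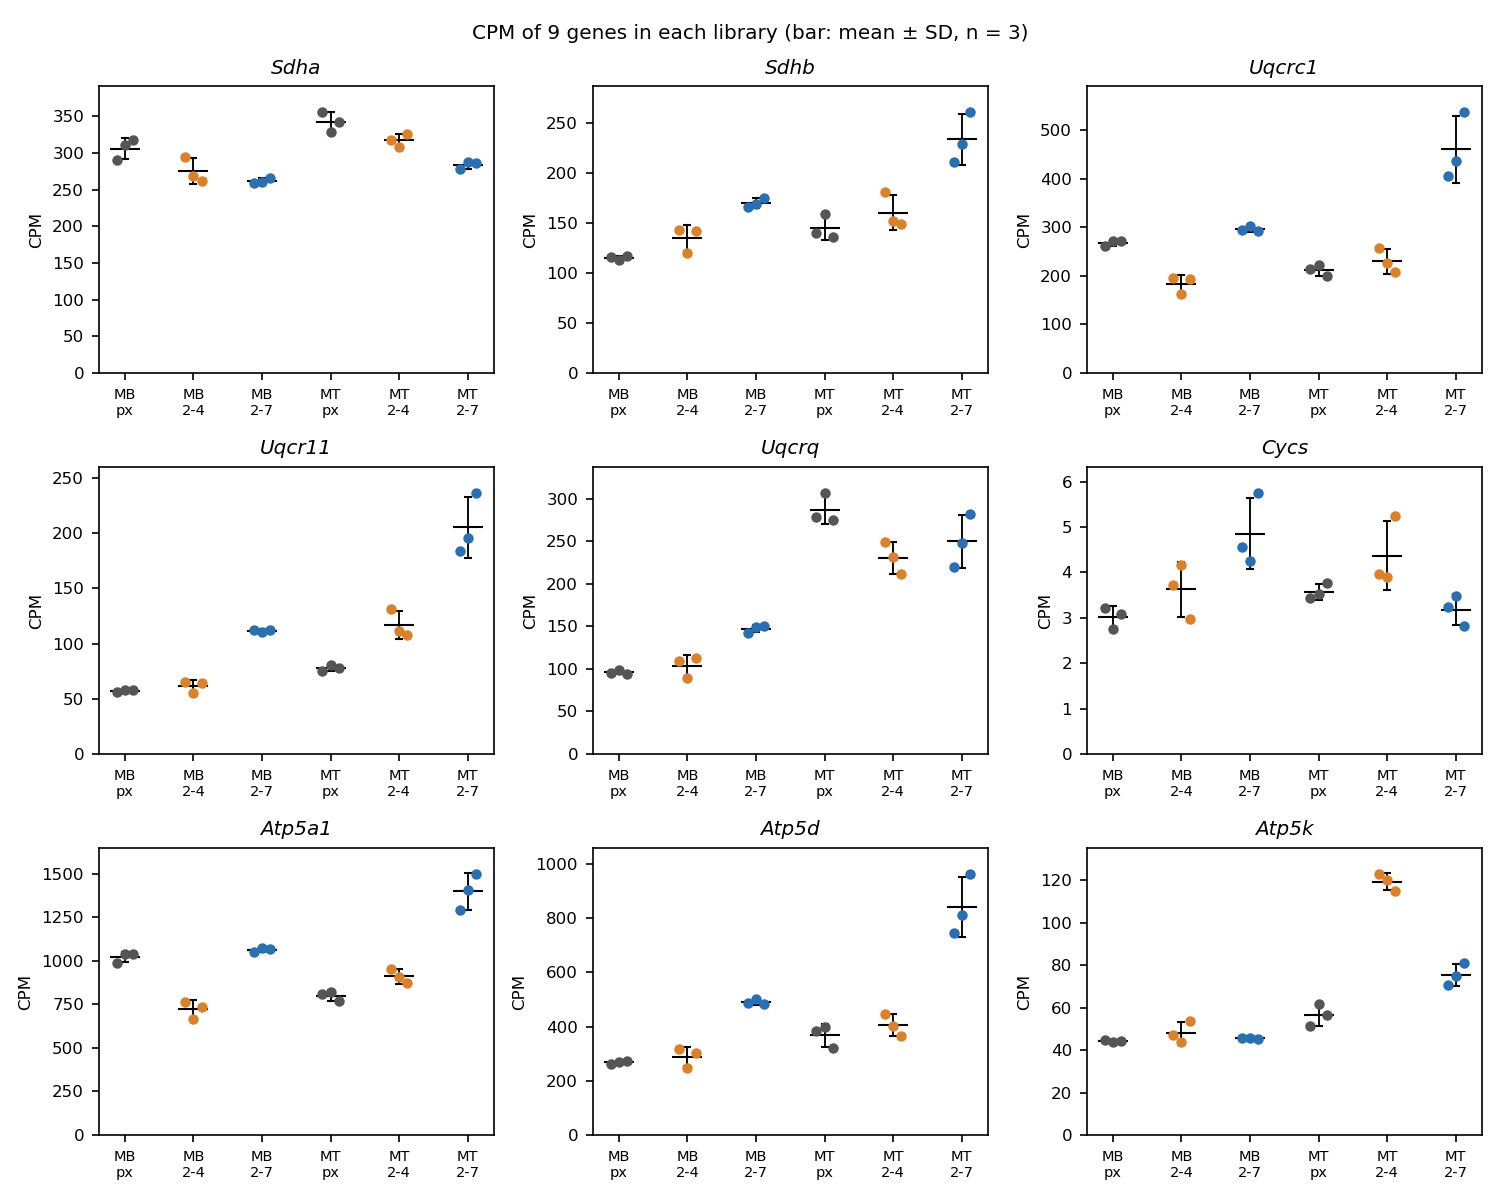
CPM of 9 of the genes in each of the 18 libraries, by stage (MB, MT) and line (px, 2-4, 2-7); points are libraries, long bars are means and whiskers are SD (n = 3). The mean of Sdha is lowest in line 2-7 at both stages, though in myoblasts its libraries overlap those of line 2-4. Uqcr11 and Atp5d are highest in line 2-7, and Atp5k is highest in line 2-4 myotubes at 115 to 123 CPM.

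Line 2-4 myoblasts differed little from control myoblasts in these genes. Only 3 of 31 members rose and 4 fell, where 20.7% of all tested genes rose and 19.7% fell. The numbers depended on scaling and on single libraries: 1 rose and 7 fell when libraries were scaled to their totals, and 1 rose and 3 fell with DESeq2 size factors. Relative to the median of all tested genes the members stood 0.06 higher under TMM and size factors and 0.05 higher under library totals. The falls were those of Uqcrc1, Cyc1, Atp5a1 and Sdha. Uqcrc1 had 196, 162 and 194 CPM, all below the 261 to 273 CPM of the controls (-0.55 ± 0.10, adjusted p = 0.00017). Cyc1 had 166, 139 and 167 CPM against 217 to 232 CPM (-0.52 ± 0.10, adjusted p = 0.000237). Atp5a1 had 767, 666 and 736 CPM against 988 to 1040 CPM (-0.50 ± 0.07, adjusted p = 5.97e-06). None of these groups overlapped its control.

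Among the rises, Atp5s was at 5.85, 4.85 and 5.57 CPM in line 2-4 myoblasts, above every control library (0.55 ± 0.12, adjusted p = 0.0015). Sdhb was at 143, 120 and 142 CPM, also above all controls, but lay near the threshold (0.23 ± 0.09, adjusted p = 0.0482). It lost the call without any 1 of control replicate A, B or C or of line 2-4 replicate A or C (adjusted p from 0.092 to 0.171). Sdha, at 295, 269 and 261 CPM, overlapped the controls and was called lower by a small margin (-0.15 ± 0.06, adjusted p = 0.0359). That call was lost without control replicate B or C or line 2-4 replicate B or C (adjusted p from 0.099 to 0.159). The third rise, of Atp5j (0.16 ± 0.06, adjusted p = 0.0461), was lost without control replicate B or C or line 2-4 replicate A or C (adjusted p from 0.0995 to 0.193). With DESeq2 size factors all 3 of these calls were lost too (adjusted p from 0.053 to 0.0759). Atp5b, at 1775, 1504 and 1708 CPM, did not pass (-0.12 ± 0.08, adjusted p = 0.238), and neither did Uqcrfs1 at 100, 85.2 and 96.0 CPM or Atp5d at 317, 249 and 302 CPM.

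In line 2-4 myotubes 17 members rose and 2 fell, against 26.2% and 30.9% of all tested genes. The median of the members was 0.27, beside -0.04 over all tested genes. With DESeq2 size factors 22 rose and 0 fell, and with library totals 26 rose and 0 fell. Library totals moved the median of all genes from -0.04 to 0.11, and relative to that median the members stood 0.31 higher under TMM and under library totals alike. The largest rises were those of Atp5k, Atp5mpl, Atp5f1 and Uqcrb. Atp5k had 123, 120 and 115 CPM in line 2-4 myotubes, above the 51.5 to 61.5 CPM of every control library (1.08 ± 0.08, adjusted p = 1.03e-09). Atp5mpl had 112, 108 and 111 CPM, above the 51.7, 64.9 and 60.3 CPM of px (0.91 ± 0.08, adjusted p = 2.8e-08). Atp5f1, the b subunit of the peripheral stalk, had 324, 308 and 365 CPM against 196, 204 and 204 CPM (0.72 ± 0.06, adjusted p = 5.17e-09), and 38.7% of its 50-base stretches occur in other genes. Uqcrb had 57.1, 45.1 and 65.9 CPM against 32.3, 33.3 and 43.9 CPM, without overlap (0.62 ± 0.15, adjusted p = 0.00155).

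Sdhd, at 175, 158 and 163 CPM, was above all its controls in line 2-4 myotubes (0.55 ± 0.08, adjusted p = 1.07e-05). Atp5a1, at 956, 908 and 871 CPM, was also above all controls but by less (0.19 ± 0.07, adjusted p = 0.0209). That call was lost without control replicate C (0.16, adjusted p = 0.0825) or line 2-4 replicate A (0.15, adjusted p = 0.0836). Atp5b, Cyc1, Uqcrc1 and Sdhb overlapped the controls and did not pass. Atp5b stood at 1979, 1854 and 1733 CPM, Cyc1 at 253, 222 and 211 CPM, Uqcrc1 at 257, 226 and 207 CPM, and Sdhb at 181, 152 and 148 CPM. Atp5b passed with library totals (0.20, adjusted p = 0.0159) and without line 2-4 replicate C (0.21, adjusted p = 0.0458). Uqcrfs1, at 145, 143 and 143 CPM, rose by 0.30 ± 0.06 (adjusted p = 0.000483), and Atp5c1 by 0.20 ± 0.07 (adjusted p = 0.0191). Sdha was at 317, 308 and 326 CPM, a difference of -0.11 ± 0.06 that did not pass (adjusted p = 0.105).

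Uqcrq and Atp5g1 fell in line 2-4 myotubes. Uqcrq, a supernumerary complex III subunit, had 249, 231 and 211 CPM, below the 279, 306 and 275 CPM of px (-0.32 ± 0.09, adjusted p = 0.00685). Atp5g1, another c-ring gene, had 48.5, 42.5 and 42.8 CPM against 58.9, 62.5 and 45.4 CPM, with overlap (-0.32 ± 0.10, adjusted p = 0.015). Both falls depended on the scaling, at -0.20 (adjusted p = 0.101) and -0.21 (adjusted p = 0.13) with DESeq2 size factors. Scaled to library totals both were at -0.17 (adjusted p = 0.0997 and 0.147). Neither passed without line 2-4 replicate C (-0.15, adjusted p = 0.205, and -0.18, adjusted p = 0.194), the library that differed most from its group across all genes (chi-square per degree of freedom of 103 and 108 against replicates B and A). Atp5g1 also failed without control replicate A (-0.27, adjusted p = 0.0647) or B (-0.23, adjusted p = 0.0982) or line 2-4 replicate B (-0.28, adjusted p = 0.0568). Without line 2-4 replicate C, 23 members rose and 0 fell.

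Set directly against each other, the clones differed in most members. In myoblasts 1 member was higher and 22 were lower in line 2-4 than in line 2-7, against 25.7% and 26.9% of all tested genes. The widest gap was that of Cyc1 at -0.97 ± 0.10 (adjusted p = 1.01e-07), followed by Uqcr11 (-0.86 ± 0.09) and Atp5g1 (-0.84 ± 0.11), and only Atp5j was higher in line 2-4 (0.22 ± 0.06, adjusted p = 0.00525). In myotubes 7 were higher and 18 lower, against 30.6% and 29.1%. Atp5d (-1.05 ± 0.10, adjusted p = 1.89e-07) and Uqcrc1 (-1.001 ± 0.10, adjusted p = 1.47e-07) were the lowest in line 2-4. Uqcrb (0.95 ± 0.15, adjusted p = 3.58e-05) and Atp5k (0.66 ± 0.08, adjusted p = 1.16e-06) were the highest.

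Summed over the genes of each complex, transcript levels were highest in line 2-7 myotubes. Complex II summed to 689, 742 and 737 CPM in control myoblasts, 756, 658 and 705 CPM in line 2-4 and 870, 879 and 889 CPM in line 2-7. In myotubes it summed to 800, 793 and 745 CPM, 917, 858 and 847 CPM, and 1088, 1166 and 1238 CPM in the same order of lines. Complex III with Cyc1 was 1115 ± 17.9 (SD, n = 3), 983 ± 89.1 and 1516 ± 27.8 CPM in myoblasts and 1398 ± 68.5, 1568 ± 99.8 and 2194 ± 234 CPM in myotubes. ATP synthase was 4555 ± 76.8, 4142 ± 319 and 6231 ± 39.6 CPM in myoblasts and 4625 ± 243, 5426 ± 274 and 8613 ± 772 CPM in myotubes. Line 2-7 libraries were above those of the other lines in all 3 sums at both stages. The higher mean sum of control myotubes than of control myoblasts turned around for complex II and ATP synthase under library totals, where myoblasts had 774 and 4882 CPM and myotubes 706 and 4189 CPM. For ATP synthase it also turned around with size factors from DESeq2, which gave 4485 CPM before and 4466 CPM after differentiation. These sums are dominated by the most abundant genes and carry no test.

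**Figure D3:**
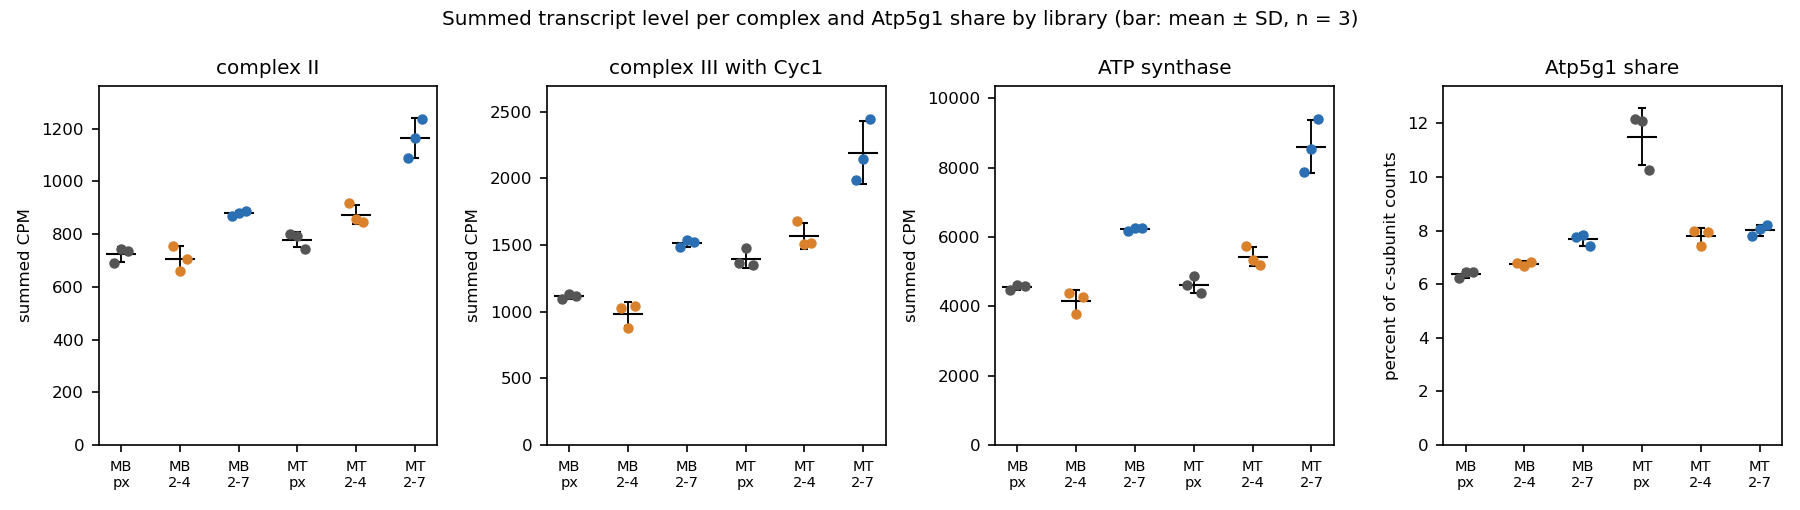
Summed CPM of the complex II, complex III (with Cyc1) and ATP synthase genes, and the share of Atp5g1 in the counts of the 3 c-subunit genes in percent, by stage and line; points are libraries, long bars are means and whiskers are SD (n = 3). Line 2-7 is highest in each sum at both stages, and the Atp5g1 share is highest in control myotubes.

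Differentiation was compared within each line, myotubes against myoblasts. In the control 18 members rose and 4 fell, where 33.9% of all tested genes rose and 28.8% fell. That balance depended on the scaling: under library totals 8 rose and 10 fell, and the median of all tested genes shifted from 0.07 to -0.17. Relative to that median the members stood 0.14 higher under either scaling. Line 2-4 had 27 rises and 0 falls, against 29.8% and 33%, and line 2-7 had 25 rises and 2 falls, against 29.8% and 35.6%. The starting points differed. Line 2-7 myoblasts already held 9164 to 11700 CPM of the summed myotube markers, against 248 to 378 CPM in control myoblasts. The part of this in the line 2-7 values was not tested. The members' medians were 0.21, 0.56 and 0.40 in px, line 2-4 and line 2-7. Altogether 15 members rose in all 3 lines, as did 14.6% of all tested genes. Their number was 12 with DESeq2 size factors, where 16.1% of all tested genes rose in all 3 lines. It was 6 when scaled to library totals (Uqcrq, Uqcr10, Uqcr11, Atp5e, Atp5h and Atp5g1), where 10.5% of all tested genes did. Sdhd, Uqcrc1 and Atp5a1 fell in the control and rose in both clones, a pattern held by 0.921% of all tested genes. With library totals 6 members held it, Sdhc, Atp5c1 and Atp5g3 being added, as did 1.33% of all tested genes. With the replicate letter as a block 2 members held it, Sdhd being lost, as did 0.86% of all tested genes.

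Uqcrq had the steepest rise in the control, from 95.2, 98.2 and 94.4 CPM in myoblasts to 275 to 306 CPM in myotubes (1.58 ± 0.09, adjusted p = 6.13e-11). In line 2-4 it started at 110, 88.9 and 112 CPM and rose by 1.15 ± 0.09 (adjusted p = 4.34e-09). In line 2-7 it started higher, at 143, 149 and 151 CPM, ended at 219, 248 and 282 CPM and rose by 0.76 ± 0.09 (adjusted p = 1.35e-06). Atp5s followed in the control with 1.01 ± 0.12 (adjusted p = 1.04e-06), and Atp5g1 with 0.99 ± 0.11 (adjusted p = 2.13e-07). The largest control falls were those of Atp5g2 (-0.53 ± 0.16, adjusted p = 0.00763) and Atp5a1 (-0.35 ± 0.07, adjusted p = 0.000135). Uqcrc1 fell by 0.34 on the log2 scale (adjusted p = 0.00527). The fall of Sdhd (-0.19 ± 0.08, adjusted p = 0.0415) was lost without control myoblast replicate B or C or control myotube replicate C (adjusted p from 0.0904 to 0.257).

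In line 2-4 the steepest rises were those of Uqcrb and Atp5k. Uqcrb went from 19.1, 23.3 and 23.2 CPM to 45.1 to 65.9 CPM (1.36 ± 0.15, adjusted p = 3.52e-07), and Atp5k from 47.1, 43.6 and 53.5 CPM to 115 to 123 CPM (1.31 ± 0.08, adjusted p = 4.73e-11). In line 2-7 they were those of Uqcr11 (0.88 ± 0.09, adjusted p = 1.27e-07) and Atp5h, the d subunit of the peripheral stalk. Atp5h went from 52.1, 46.9 and 51.3 CPM to 81.7, 87.5 and 98.0 CPM (0.83 ± 0.10, adjusted p = 1.78e-06), and 50.5% of its 50-base stretches occur in other genes. The falls in line 2-7 were those of Cycs (-0.61 ± 0.16, adjusted p = 0.00255) and Atp5g2 (-0.58 ± 0.16, adjusted p = 0.00417), both at low counts.

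**Figure D4:**
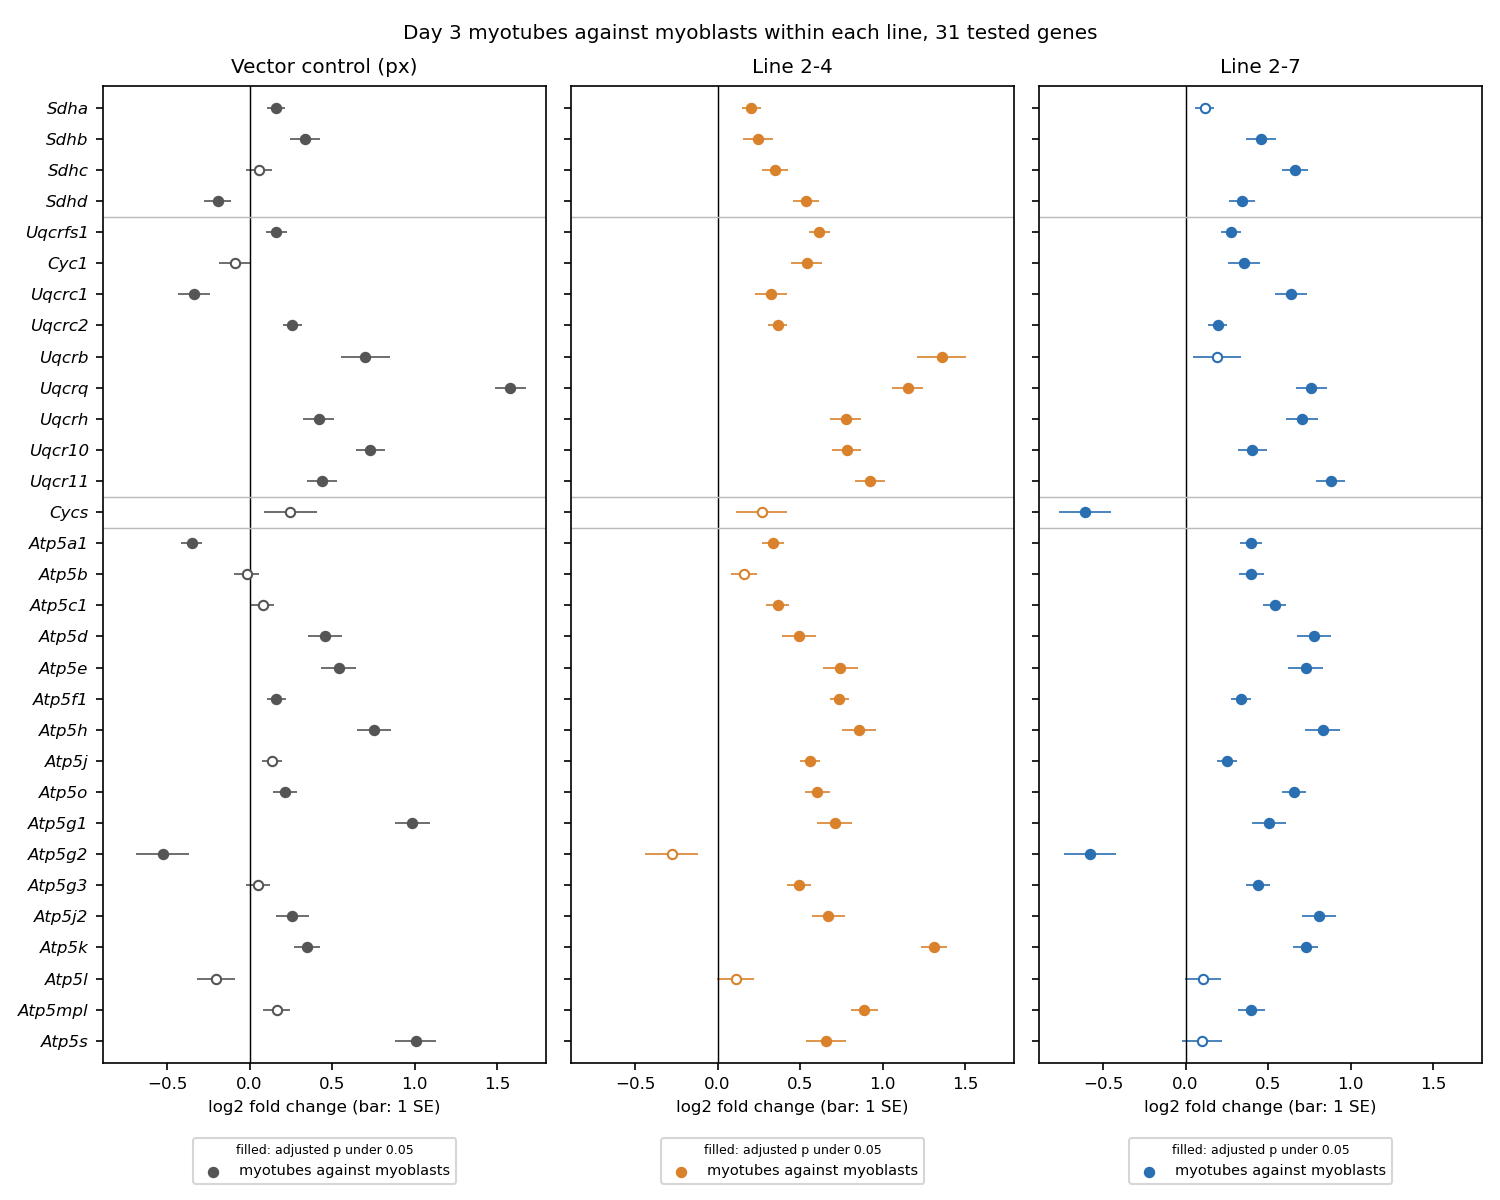
Log2 fold change of each tested gene from myoblasts to day 3 myotubes in the px control, line 2-4 and line 2-7, with bars of 1 SE; filled circles have an adjusted p under 0.05. Uqcrq has the largest value in the control at 1.58, and Sdhd, Uqcrc1 and Atp5a1 lie left of 0 in the control and right of it in both clones.

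The differentiation responses of the clones were tested against that of the control as interaction terms, which share the control libraries. The line 2-7 response started from myoblasts with summed myotube markers already at 9164 CPM or more, and the part of this was not tested. For line 2-4 the response was more positive for 17 members and more negative for 1, against 16.6% and 22.3% of all tested genes. For line 2-7 it was more positive for 12 and more negative for 5, against 20.2% and 29.9%, and these became 19 and 3 with DESeq2 size factors and 16 and 4 with library totals. The median of all tested genes in this interaction moved too, from -0.115 to 0.0369 and -0.0416. Relative to that median the members stood 0.35 higher under each of these scalings. Atp5k gained 0.97 ± 0.11 (adjusted p = 1.12e-06) and Sdhd 0.73 ± 0.11 (adjusted p = 4.02e-05) over the control response in line 2-4, and 0.38 ± 0.11 (adjusted p = 0.00769) and 0.54 ± 0.11 (adjusted p = 0.000716) in line 2-7. Uqcrc1 gained 0.66 ± 0.14 (adjusted p = 0.000761) in line 2-4 and 0.98 ± 0.14 (adjusted p = 1.32e-05) in line 2-7. Atp5a1 gained 0.69 ± 0.09 (adjusted p = 9.69e-06) in line 2-4 and 0.75 ± 0.09 (adjusted p = 3.09e-06) in line 2-7. In line 2-7 the response was more negative for Atp5s (-0.91 ± 0.17, adjusted p = 0.000299), Cycs (-0.85 ± 0.22, adjusted p = 0.00431) and Uqcrq (-0.82 ± 0.13, adjusted p = 5.6e-05). Uqcr10 and Atp5g1 were also called more negative there. Cycs fell in line 2-7 (-0.61), where the control was at 0.25 and did not pass. The smaller response of Uqcrq in line 2-4 (-0.43 ± 0.13, adjusted p = 0.0145) did not hold under DESeq2 size factors (-0.31, adjusted p = 0.102), library totals (-0.24, adjusted p = 0.132) or without line 2-4 myotube replicate C (-0.26, adjusted p = 0.149).

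The c ring is built from identical proteins that are encoded by Atp5g1, Atp5g2 and Atp5g3, whose products differ in the import sequence that is cut off. Atp5g3 made up most of their counts, with 400, 411 and 411 CPM in control myoblasts, 391, 349 and 377 CPM in line 2-4 myoblasts and 585, 585 and 589 CPM in line 2-7 myoblasts. Its myotube values were 422, 451 and 394 CPM, 557, 525 and 493 CPM, and 720, 789 and 873 CPM. Neither clone's myotubes overlapped the control (0.31 ± 0.07, adjusted p = 0.00106, in line 2-4 and 0.91 ± 0.07, adjusted p = 3.68e-09, in line 2-7). Atp5g1 was at 26.9, 28.6 and 28.7 CPM in control myoblasts, 28.8, 25.2 and 27.9 CPM in line 2-4 and 49.6, 49.97 and 47.5 CPM in line 2-7 (0.80 ± 0.11, adjusted p = 4.09e-06). In line 2-7 myotubes it had 61.1, 69.4 and 78.1 CPM, a rise of 0.32 ± 0.10 (adjusted p = 0.0112) that was lost without control replicate C (0.20, adjusted p = 0.0825) or line 2-7 replicate C (0.23, adjusted p = 0.0719). Atp5g2 stayed at 2.29 to 4.57 CPM in all libraries.

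The share of Atp5g1 in the counts of the 3 genes was 6.22%, 6.46% and 6.47% in control myoblasts and 12.2%, 12.1% and 10.3% in control myotubes. It was 6.67% to 6.84% in myoblasts and 7.44% to 7.99% in myotubes of line 2-4, and 7.41% to 7.83% and 7.80% to 8.20% in line 2-7. Between myoblasts and myotubes the mean share differed by 5.13 percentage points in the control, by 1.02 in line 2-4 and by 0.346 in line 2-7. In myotubes the difference from px was -3.72 points in line 2-4 and -3.49 points in line 2-7. The exact permutation test (two-sided) gave p = 0.1, the smallest that 3 against 3 allows, for 6 of the 7 Atp5g1 comparisons and p = 0.2 for line 2-7 differentiation. Over the 21 comparisons made for the 3 genes the adjusted p was 0.117 and 0.221 for these, so none could reach 0.05. The shares are of counts not divided by length. Of the 50-base stretches of Atp5g1 and Atp5g2, 11.6% and 100% occur in other genes.

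The members lie on 15 chromosomes, and in both clones the median of the other tested protein-coding genes varied between chromosomes. This comparison was chosen after the values had been seen. In line 2-7 myotubes this median log2 fold change was -0.70 on chromosome 13, -0.66 on chromosome 18 and -0.50 on chromosome 12, and 0.21 on chromosome 10. Uqcr11 and Atp5d lie 257.2 kb apart on chromosome 10 (80402997-80406830 and 80138632-80145818, GRCm38). The other tested protein-coding genes within 1 Mb of each had a median of 0.70 in line 2-7 myotubes, compared with 1.40 and 1.19 for the genes themselves. Sdha lies at 74322254-74350280 on chromosome 13. In line 2-7 myotubes it was at -0.27 where its chromosome was at -0.70. In line 2-7 myoblasts it was at -0.22 where the chromosome was at -0.27. Atp5a1 on chromosome 18 was 1.46 above its chromosome in line 2-7 myotubes, and Uqcrfs1 on chromosome 13 was 1.16 above.

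Against the median of their own chromosome, 30 of 31 members were higher in line 2-7 myoblasts and 30 in line 2-7 myotubes, with median differences of 0.48 and 0.86. The exceptions were Atp5j in myoblasts and Uqcrq in myotubes. Against the genes within 1 Mb, 30 were higher at each stage, by medians of 0.37 and 0.57. In line 2-4 myotubes 29 were above their chromosome by a median of 0.37, and in line 2-4 myoblasts 14 were, with a median difference of -0.01. Against the genes within 1 Mb, 29 were higher in line 2-4 myotubes, by a median of 0.29. In line 2-4 myoblasts 9 were higher than these neighbours, with a median difference of -0.06. The line 2-4 myoblast medians were -0.25 on chromosome 9, -0.32 on chromosome 15 and -0.24 on chromosome 18. Uqcrc1, Cyc1 and Atp5a1, which fell in line 2-4 myoblasts, lie on these in that order and differed from them by -0.29, -0.20 and -0.26. Sdha, which was also called lower there, differed by -0.17 from the 0.02 of chromosome 13. The part of chromosome position in these values was not tested.

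**Figure D5:**
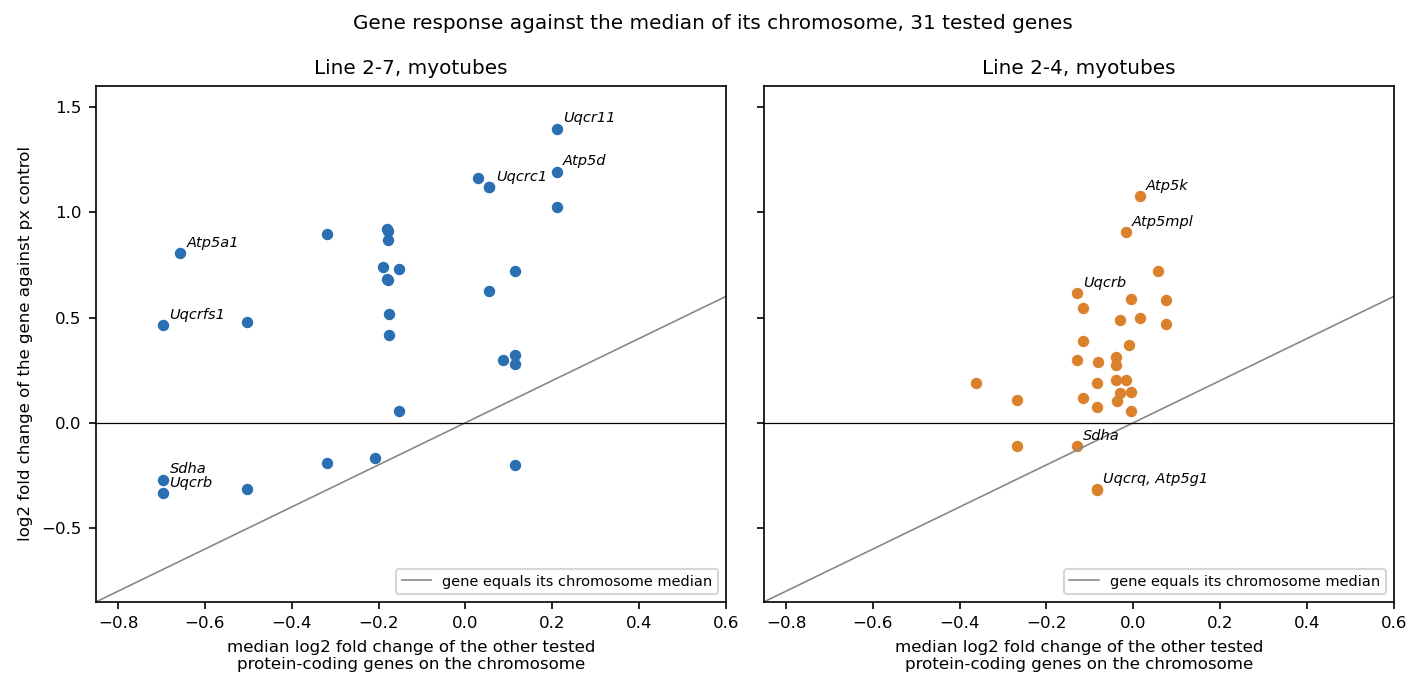
Log2 fold change of each tested gene against px in myotubes (vertical axis) and the median log2 fold change of the other tested protein-coding genes on its chromosome (horizontal axis), for line 2-7 and line 2-4; each point is a gene and the grey line marks equal values. In line 2-7 all points but that of Uqcrq lie above the line, and in line 2-4 all but those of Uqcrq and Atp5g1.

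Related mitochondrial genes were read from 5 lists. Of 16 assembly factors and inhibitors of these complexes, 10 rose (62.5%, against 26.4% of all tested genes) and 2 fell (12.5% against 26.6%) in line 2-7 myoblasts. In line 2-7 myotubes 6 rose, a share of 37.5% that lies near the 31% of all tested genes, and 3 fell (18.8% against 37%). The list medians were 0.40 and 0.19, beside 0.02 and -0.07 over all tested genes. Lyrm7, a helper for the Rieske protein, rose in myoblasts from 0.843, 1.35 and 0.780 CPM to 2.54, 2.71 and 2.99 CPM (1.47 ± 0.18, adjusted p = 1.22e-06). Atpif1, the inhibitor that blocks ATP synthase from running in reverse, fell in line 2-7, to 69.7, 73.1 and 83.9 CPM in myotubes against 113, 130 and 139 CPM in px (-0.76 ± 0.08, adjusted p = 1.72e-07), and by 0.38 on the log2 scale in myoblasts. In line 2-4, 1 of the 16 rose and 0 fell in myoblasts, against 20.7% and 19.7% of all tested genes. In its myotubes 5 rose (31.2%, near the 26.2% of all tested genes) and 1 fell.

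Of 6 tested carriers and channels for ATP, ADP and phosphate, 5 rose in line 2-7 at each stage (83.3%, against 26.4% and 31% of all tested genes). Slc25a3, which imports the phosphate used by ATP synthase, rose by 0.62 ± 0.07 (adjusted p = 6.75e-07) in myoblasts and 1.07 ± 0.07 (adjusted p = 3.29e-10) in myotubes. Vdac3, an outer membrane channel, fell in myotubes of line 2-7 (-0.95 ± 0.07, adjusted p = 9.15e-10) and of line 2-4 (-0.81 ± 0.07, adjusted p = 9.52e-09). In line 2-4 myoblasts 1 of the 6 rose and 3 fell (against 20.7% and 19.7% of all tested genes), led by Slc25a5, an ADP/ATP carrier (-0.48 ± 0.07, adjusted p = 1.61e-05).

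Of 13 TCA cycle genes outside complex II, 7 rose (53.8%, against 26.4% of all tested genes) and 1 fell in line 2-7 myoblasts, and 8 rose (61.5% against 31%) and 1 fell in its myotubes. Cs, citrate synthase, rose from 436, 423 and 381 CPM to 606, 653 and 677 CPM in myotubes (0.64 ± 0.07, adjusted p = 1.85e-07). Dld, a subunit shared by several dehydrogenases, fell from 171, 155 and 202 CPM to 73.4, 53.4 and 52.3 CPM (-1.56 ± 0.26, adjusted p = 0.0001). In line 2-4 myoblasts 0 rose and 3 fell (23.1%, near the 19.7% of all tested genes), and in its myotubes 1 rose and 1 fell, against 26.2% and 30.9%. Of 13 coenzyme Q synthesis genes, 8 rose (61.5%, against 26.4% of all tested genes) and 1 fell in line 2-7 myoblasts and 8 rose (against 31%) and 2 fell in its myotubes. Coq8a, a kinase-like protein of this pathway, rose by 2.57 ± 0.16 (adjusted p = 1.09e-09) and 2.695 ± 0.15 (adjusted p = 9.61e-11). It also rose by 1.58 ± 0.14 (adjusted p = 6e-08) in line 2-4 myotubes, where 9 of the 13 rose (69.2% against 26.2%) and 2 fell. In line 2-4 myoblasts 3 of the 13 rose (23.1%, near the 20.7% of all tested genes) and 1 fell (7.69% against 19.7%). The fall was that of Coq9, which binds coenzyme Q intermediates (-0.66 ± 0.09, adjusted p = 8.46e-06). Of 7 cristae genes matched, 3 rose (42.9%, against 26.4%) and 1 fell in line 2-7 myoblasts. In line 2-7 myotubes 2 rose (28.6%, below the 31% of all tested genes) and 1 fell. In line 2-4 myotubes 5 rose (71.4% against 26.2%) and 0 fell, led by Apool (0.75 ± 0.14, adjusted p = 0.000126).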

How the data were processed

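PolyA RNA of 18 libraries in 6 groups of 3 was analysed. The deposited values used are the authors' raw counts for each Ensembl gene. Per the submitters' processing notes, STAR 2.7.9a, Subread 2.0.3, featureCounts, FastQC 0.11.7 and DESeq2 1.32.0 were used with build mm10; their order, the annotation and the use of strand were not given in the sources used here. Members with exons overlapping genes on the opposite strand (such as Uqcrc2, Atp5d, Atp5f1 and Atp5j) are uncertain to that extent. Symbols and positions came from GENCODE M21 (GRCm38), which matched 55190 of 55450 IDs. Groups were read from the sample titles.

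Counts were tested with edgeR 4.0.16 (TMM, filterByExpr by group, robust quasi-likelihood test) in 1 fit of all libraries, leaving 12 residual degrees of freedom, with 11 contrasts and Benjamini-Hochberg adjustment over 17912 genes at 0.05. CPM was set by TMM. No replicate pair was a duplicate (chi-square per degree of freedom at least 4.459). Alternatives were DESeq2 1.42.0 size factors and Wald test, library totals, no filter, a replicate block, only the groups compared, and leaving out each library. The c-subunit shares were compared by exact permutation test. Named genes were those fixed by role and, per contrast, the 2 highest and 2 lowest called members; others were named after their values were seen. The members and lists were chosen with earlier results of these data known. The deposited variance-stabilised values were not used.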

Additional observations from a re-analysis of the deposited data

Results flagged for a closer look

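The response to differentiation differed between a clone and the control, by the interaction test, for 18 members in line 2-4 and 17 in line 2-7. In line 2-4, 17 were more positive and 1 more negative, against 16.6% and 22.3% of all tested genes. In line 2-7, 12 were more positive and 5 more negative, against 20.2% and 29.9% of all tested genes. The members described above differed as follows in log2 response, clone minus control. Atp5k differed by 0.97 in line 2-4 and 0.38 in line 2-7, Sdhd by 0.73 and 0.54, Atp5a1 by 0.69 and 0.75, and Uqcrc1 by 0.66 and 0.98. Uqcrq differed by -0.43 in line 2-4, a call lost under either other scaling, and by -0.82 in line 2-7. Cycs differed by -0.85 and Atp5s by -0.91 in line 2-7. The 2 comparisons share the control libraries. Line 2-7 myoblasts already held summed myotube markers at 9164 CPM or more, and the part of this was not tested. Groups of 3 are too small for a check of single outlying samples.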

How the results depend on the processing

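Scaling mattered most where members moved little. In line 2-4 myoblasts (3 higher, 4 lower), 1 member was higher with DESeq2 size factors, with library totals and with the replicate block, and 7 were lower with library totals; leaving out a library gave 1 to 5 higher (5 without line 2-4 replicate B, 1 without its replicate A or C or control replicate B or C). In line 2-4 myotubes, 26 were higher with library totals, and 0 lower with size factors, library totals, the Wald test or only the groups compared; leaving out a library gave 0 to 2 lower and 14 to 23 higher (23 and 0 without line 2-4 replicate C). In line 2-7 myotubes, 0 were lower with size factors and the Wald test and 1 with library totals or only the groups compared, and leaving out a library gave 1 to 3. Control differentiation gave 8 higher and 10 lower with library totals. For line 2-4 differentiation, 0 to 1 were lower when a library was left out (1 without myoblast replicate C).

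The line 2-4 interaction had 0 lower with size factors, library totals and the Wald test, and 0 to 2 when a library was left out (2 without control myotube replicate C, 0 without line 2-4 myotube replicate C). The line 2-7 interaction had 19 higher and 3 lower with size factors and with the Wald test, and 20 higher with only the groups compared. The median of all tested genes in that interaction was -0.115 in the main fit and 0.0369 with size factors. The cause of these shifts was not tested.

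Mean sums with library totals were 774 CPM (complex II), 1196 CPM (complex III) and 4882 CPM (ATP synthase) in control myoblasts, and 706, 1266 and 4189 CPM in control myotubes. For line 2-7 myoblasts they were 926, 1595 and 6560 CPM, and with size factors 853, 1469 and 6041 CPM. Complex II was 912 CPM with size factors in line 2-4 myotubes and 1088 CPM with library totals in line 2-7 myotubes. Every other sum moved by less than 1 SD, and all Atp5g1 share differences kept their sign.

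Of 99 single-gene values, none changed sign under an alternative; 59 of their alternative values lost a call and 7 gained one. The letters A, B and C did not pair the samples (same-letter correlations -0.358 to 0.264, all above 0.1 in 0 of 15 group pairs). Apart from the line 2-4 myoblast counts, the replicate block moved no count of members by over 1.5 times; among the named genes it ended the calls of Sdha, Sdhb and Atp5j in line 2-4 myoblasts and of Sdhd in control differentiation. Cycs, Atp5g2 and Atp5s were all under 10 CPM. Sequence shared with other genes also limits Cycs (28.5% of 50-base stretches) and Atp5g2 (100%).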
